A study of Rattus norvegicus with 24 samples.

Results

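The miRNA content of the lung was compared between Fischer-344 rats that inhaled hexanal at 1500 ppm and rats that breathed filtered clean air. The members were chosen by the exposure in the sample labels, which gave 12 of the 24 arrays of the series: 6 rats at 1500 ppm and 6 control rats, each with its own array. Each group held 3 males and 3 females. The control rats were males 1, 2 and 3 and females 21, 22 and 23, and the exposed rats were males 16, 17 and 18 and females 36, 37 and 38, numbered as in the labels. All rats were obtained at 7 to 8 weeks of age, and per the labels they inhaled the atmosphere for 5 weeks, with sessions of 4 h on 5 days of each week. The sample titles give the dose in ppm and the protocol text gives the same number in milligrams per cubic metre, so ppm is used here as the name of the group. The other 12 rats, at 600 and 1000 ppm, entered the estimate of the spread between rats and are named only where their slide bears on the comparison.

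The arrays lay on 3 slides of 8 arrays each, and the slides were not shared evenly between the groups. Control males were on slide 1, control females and 1500 ppm males on slide 2, and 1500 ppm females on slide 3. Within each sex, no slide held both a control rat and a 1500 ppm rat, so that dose and slide cannot be told apart from these rats alone. A link between slides within a sex came from a single rat in each case. Male 13 (1000 ppm) was on slide 2 while the other 1000 ppm males were on slide 1, and female 26 (600 ppm) was on slide 2 while the other 600 ppm females were on slide 3. Each comparison within males below therefore sets slide 2 against slide 1, and each within females sets slide 3 against slide 2.

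A miRNA is a short RNA that is cut from a hairpin precursor and loaded into an Argonaute protein. It guides that protein to messenger RNAs, mostly through its seed, the bases near its 5′ end, and lowers their translation and stability. Both arms of a hairpin can give a mature miRNA, written 5p and 3p. In the lung, miR-126 marks endothelium, miR-143 and miR-145 smooth muscle, the miR-200 family epithelium, miR-34b, miR-34c and miR-449 ciliated cells, and miR-142 and miR-223 leukocytes, while miR-21 and miR-210 are known as responders to injury and to low oxygen.

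The mature sequences of the miRNAs on which the results turn are given first. They were taken from RefSeq (assembly GRCr8), where 249 of the 283 tested miRNAs had an entry, and the capitals mark the seed, bases 2 to 8. The first set shows members of the let-7 family that share the seed GAGGUAG. They are shown because 6 of the 8 tested miRNAs with this seed were higher in 1500 ppm males than in control males, while let-7f-5p was not and miR-98-5p was lower.
let-7e-5p: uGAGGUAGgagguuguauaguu
let-7b-5p: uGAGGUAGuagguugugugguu
let-7i-5p: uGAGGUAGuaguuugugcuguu
let-7f-5p: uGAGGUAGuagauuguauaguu
miR-98-5p: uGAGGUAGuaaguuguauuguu
Compared base by base, let-7e-5p differed from the other 7 at 1 to 5 of 22 bases, with 3 for miR-98-5p and 2 for let-7f-5p. Array probes can share signal between sequences this close, so the values of single let-7 members are uncertain.

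The second set shows the 3p arm of let-7i beside its 5p arm above, and both arms of the miR-126a hairpin, because the arms of these hairpins were measured differently in males.
let-7i-3p: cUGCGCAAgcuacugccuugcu
miR-126a-5p: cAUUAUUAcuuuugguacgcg
miR-126a-3p: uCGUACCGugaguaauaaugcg
The let-7i arms lie at chr7:60527935-60527956 (5p) and chr7:60527879-60527900 (3p) on the minus strand, and the miR-126a arms at chr3:29813182-29813202 (5p) and chr3:29813219-29813240 (3p) on the plus strand.

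The third set shows the miRNAs that stood out singly. miR-210-3p had the smallest p among the miRNAs that were higher in males, miR-183-5p the largest positive change there, and miR-211-3p the smallest p in females.
miR-210-3p: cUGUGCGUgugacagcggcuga
miR-183-5p: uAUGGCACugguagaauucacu
miR-211-3p: gGCAAGGAcagcaaaggggg
The fourth set shows 3 miRNAs that were lower in 1500 ppm males and that lie within 5379 bases of each other on the minus strand of chromosome X, at chrX:151706773-151706794, chrX:151711832-151711851 and chrX:151712092-151712113 in the order given.
miR-3585-5p: uUCACAAGaaggugucuuucau
miR-201-5p: cACUCAGUaaggcauuguuc
miR-547-3p: aUUGGUACuucuuuaagugaga

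Among the 12 rats of the 2 groups, the control males, all on slide 1, stood apart in the whole-array values. Of the 283 miRNAs tested, 227 to 259 were above background on an array at 1500 ppm and 244 to 282 on a control array, a difference of means of -18.7 (two-sided exact permutation p = 0.0433, adjusted over 3 tests 0.0844). The 75th percentile of probe intensity before scaling was 756 ± 58.8 at 1500 ppm and 932 ± 254 in control (scanner units, SD, n = 6, exact permutation p = 0.165). The 3 control males on slide 1 were at 1065 to 1226 and had 277 to 282 miRNAs above background. The other rats of both groups were at 662 to 824 and had 227 to 266. Males 6, 7, 11 and 12, at other doses on slide 1, were at 1000 to 1219 and had 271 to 281. Male 8, at 600 ppm on slide 1, was at 677 and had 253. Female 32, at 1000 ppm on slide 3, was at 1063 and had 273. The part of these whole-array values in the differences was not tested. Of the lung marker miRNAs, 2 of 2 endothelial, 4 of 4 smooth muscle, 6 of 9 epithelial, 5 of 6 ciliated and 3 of 4 leukocyte members were above background often enough to be tested. Of the brain, pancreas and striated muscle markers, 10 of 12, 5 of 6 and 9 of 14 were too dim for it. Of the 2 liver markers, miR-122-3p was too dim and miR-122-5p was tested. Their summed level, with each held at or above the floor of 11.3, was 22.6 to 71.4 in control and 22.8 to 75.5 at 1500 ppm (scaled intensity). The summed level of the lung lists overlapped between the groups. For endothelial markers it was 12210 to 16316 in control and 11890 to 15202 at 1500 ppm, and for epithelial markers 3797 to 4138 and 3828 to 4541 (scaled intensity).

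The first comparison asked which miRNAs differed between all 6 exposed and all 6 control rats. None of the 283 passed the threshold in limma with Benjamini-Hochberg adjustment at 0.05 (0%), and the smallest adjusted p was 0.164. At an unadjusted p below 0.05 there were 26 miRNAs (9.19%), 11 higher and 15 lower at 1500 ppm. The differences ran from -0.59 to 0.65 on the log2 scale with a median standard error of 0.10, and 3 of them exceeded 1.5-fold. In a fit with slide as a block the numbers were again 0 after adjustment, with 24 at an unadjusted p below 0.05. That fit had no term for sex. Only slide 2 held rats of both groups, 3 control females and 3 males at 1500 ppm. The blocked values over both sexes below therefore rest in part on females set against males, and cannot separate dose from sex. Fitting sex together with slide, an alternative added after seeing the data, also gave 0 calls.

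The miRNAs described next are the 5 higher and the 5 lower with the smallest unadjusted p, and none of them passed the adjusted threshold. miR-378b, whose better-known relative miR-378a lies within the gene of a metabolic coactivator, was the only miRNA of 283 (0.353%) whose groups did not overlap. Its log2 level was 7.51, 7.69 and 7.54 in control males, 7.78, 7.66 and 7.64 in control females, 7.80, 7.83 and 7.93 in 1500 ppm males, and 7.80, 8.02 and 7.84 in 1500 ppm females. All exposed rats thus lay above all control rats, but the highest control rat, female 21, nearly reached the lowest exposed rats. The difference was 0.23 ± 0.06 (SE, limma adjusted p = 0.164). The block left 0.17 ± 0.06.

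miR-210-3p, the miRNA best known to be induced by low oxygen, was at 5.86, 6.16 and 6.14 in control males and at 6.63, 6.40 and 6.54 in control females. It was at 6.79, 7.00 and 6.89 in 1500 ppm males and at 6.57, 6.84 and 6.67 in 1500 ppm females. The control rats on slide 1 were the lowest, the control and exposed females overlapped, and the exposed males were above every control rat. The difference was 0.50 ± 0.16 (SE, limma adjusted p = 0.199). The block left 0.25 ± 0.08.

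The other 3 higher miRNAs were miR-21-5p, miR-511-3p and miR-378a-5p. miR-21-5p, a widely studied responder to injury, was at 11.43 to 11.73 in control with a median of 11.55 and at 11.62 to 11.85 at 1500 ppm with a median of 11.77, a difference of 0.19 ± 0.07 (SE, limma adjusted p = 0.325). Its groups overlapped, and each exposed rat lay above the control mean. miR-511-3p, which lies within the gene of the mannose receptor of macrophages, differed by 0.25 ± 0.09 (SE). miR-378a-5p differed by 0.42 ± 0.17 (SE) and by 0.11 ± 0.08 with slide as a block, and its control males on slide 1 (3.71, 3.82 and 3.80) stood apart from all other rats of both groups (4.28 to 4.71).

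**Figure D1:**
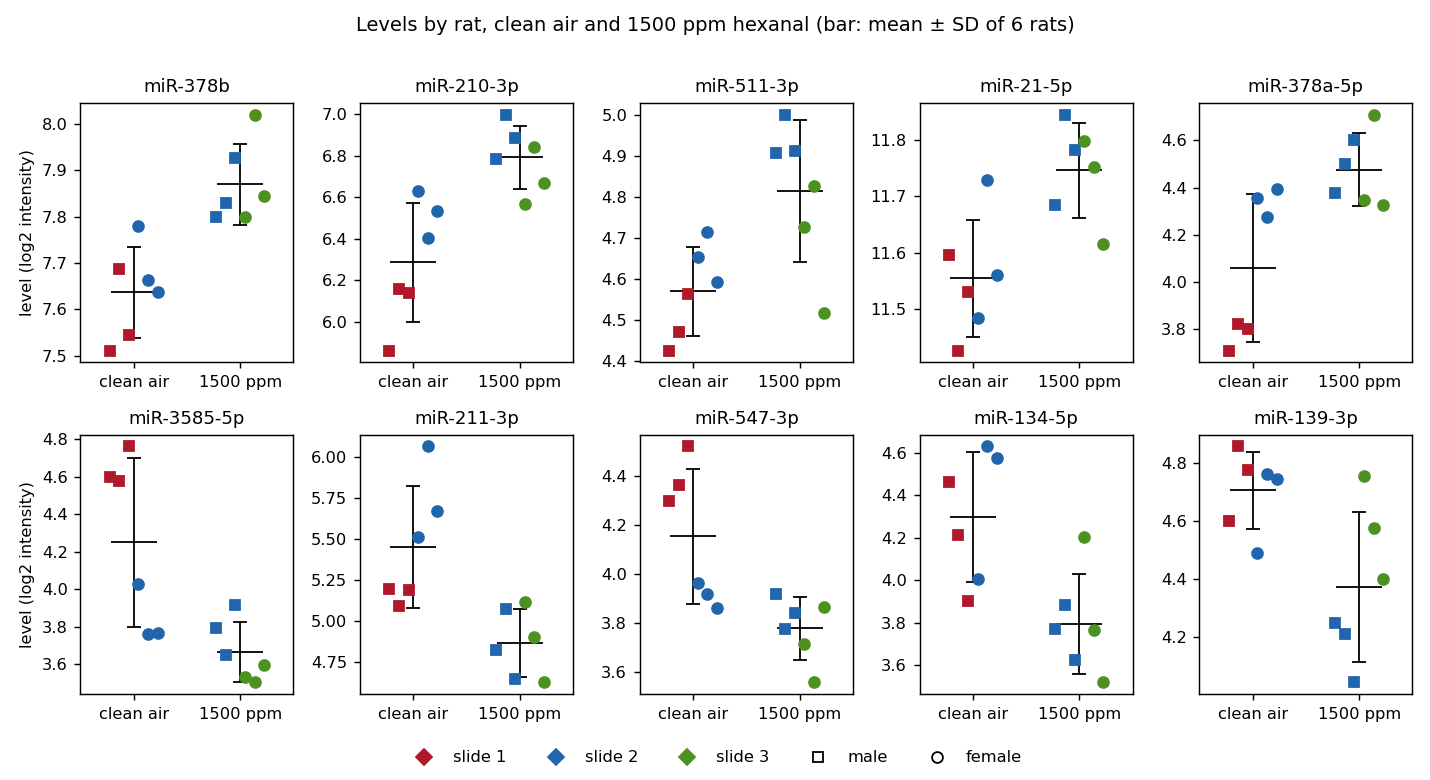
Log2 intensity of the 10 miRNAs with the smallest unadjusted p in the comparison of 6 clean air and 6 rats at 1500 ppm, 1 point per rat, with colour for the slide, squares for males and circles for females, and bars for the mean and SD. The groups overlap for 9 of the 10, and for miR-210-3p, miR-378a-5p, miR-3585-5p and miR-547-3p the slide 1 control males lie at the far end of the control rats.

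Among the 5 lower miRNAs, miR-211-3p had a log2 level of 5.20, 5.09 and 5.19 in control males and 5.51, 6.06 and 5.67 in control females. At 1500 ppm it was at 4.83, 5.07 and 4.64 in males and 5.12, 4.90 and 4.63 in females. The exposed rats were lower except that the highest, female 36, lay within the range of the control males. The difference was -0.59 ± 0.17 (SE, limma adjusted p = 0.164). It was -0.56 ± 0.17 with slide as a block, but 0.05 when sex was fitted together with slide, an alternative added after seeing the data.

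miR-3585-5p and miR-547-3p, neighbours on chromosome X, were also among the 5. miR-3585-5p differed by -0.59 ± 0.16 (SE, limma adjusted p = 0.164) and miR-547-3p by -0.37 ± 0.11 (SE, limma adjusted p = 0.185). Both were dim, with miR-3585-5p above background on 5 of 6 control and 2 of 6 exposed arrays. miR-134-5p, from the imprinted Dlk1-Dio3 cluster, differed by -0.50 ± 0.15 (SE) and was above background on 4 of 6 exposed arrays. miR-139-3p differed by -0.33 ± 0.12 (SE), with the 1500 ppm males (4.25, 4.21 and 4.04) below all control rats and the 1500 ppm females (4.75, 4.58 and 4.40) overlapping them.

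The comparison within males gave many more calls. Of the 283 miRNAs, 102 passed the threshold (36%, limma with Benjamini-Hochberg adjustment). In 1500 ppm males (slide 2), 57 were higher and 45 lower than in control males (slide 1). The smallest adjusted p was 4.63e-05, for miR-201-5p, which was not above background in any exposed male. Once slide was fitted as a block, which rests on male 13 to link the slides within males, 0 passed and 4 had an unadjusted p below 0.05. The median size of the 102 differences was 0.46 on the log2 scale, and with the block it was 0.05 in the same direction, with 78 of 102 keeping their sign and a median standard error over all miRNAs of 0.17.

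The split of the calls moved with the scaling of the arrays. Against 57 higher and 45 lower, there were 113 and 32 with the 75th percentile over all probes, 99 and 38 with the brightest probe of each miRNA, 25 and 61 with the total gene signal, and 1 and 196 in the deposited series table, which has no scaling between arrays. These settings moved the median difference of all 283 miRNAs in males by 0.14, 0.07, -0.18 and -0.70. A normexp background correction moved it by 0.14 and left 7 calls. The direction of a single miRNA below is therefore its change relative to the other miRNAs of the same arrays.

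The males at the other doses were then compared by slide. For each of the 102 miRNAs, every rat was placed on the side of the control males or on the side of the 1500 ppm males, with the midpoint of their means as the border. Male 13, at 1000 ppm on slide 2, lay on the side of the 1500 ppm males for 92 of the 102, while males 11 and 12, at the same dose on slide 1, did so for 5 and 8. The 600 ppm males, all on slide 1, did so for 5, 4 and 28. The 28 belonged to male 8, whose array had the lowest 75th percentile of slide 1 (677). No female was on slide 1, so that for this slide sex and slide cannot be told apart in the females, whose levels are no part of this contrast. The 4 females on slide 2, including the 3 control females, lay on the side of the 1500 ppm males for 86 to 94 of the 102, and the 8 on slide 3 for 76 to 93, and these ranges overlapped.

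**Figure D2:**
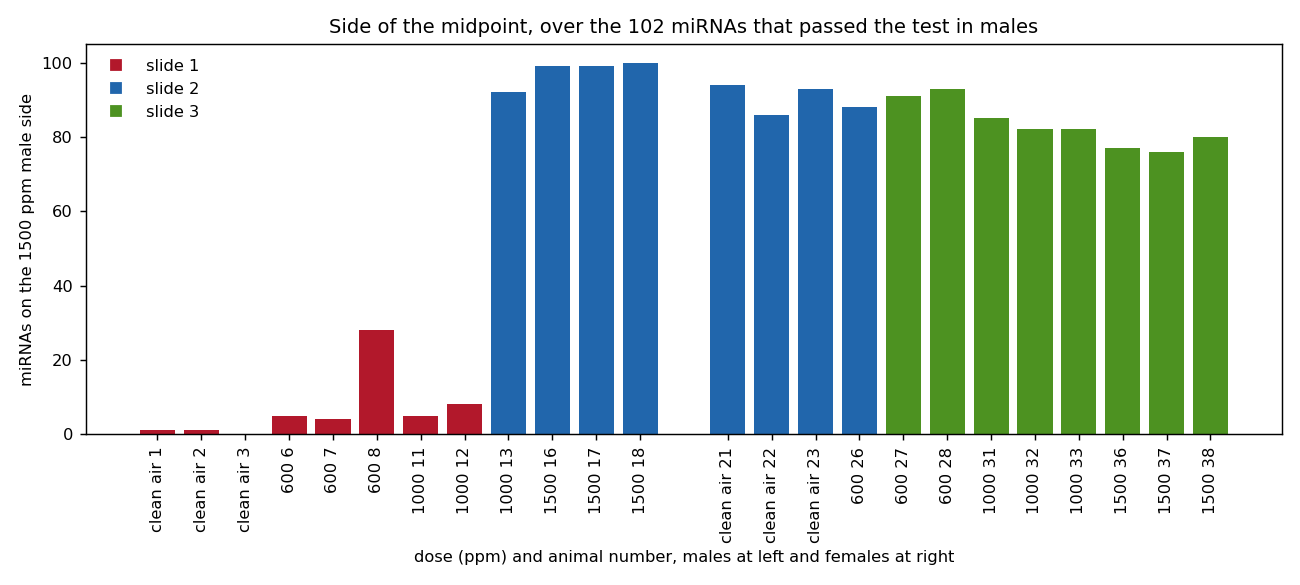
Number of the 102 miRNAs called in males for which each rat lay on the side of the 1500 ppm males, with 1 bar per rat, ordered by sex and dose and coloured by slide; the bars of the control and 1500 ppm males (1, 1, 0 and 99, 99, 100) follow from the calls themselves. The slide 1 rats reach at most 28, and all rats on slides 2 and 3, control females included, are at 76 or more.

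In the let-7 list, 6 of the 5p arms were higher in 1500 ppm males on slide 2 than in control males on slide 1. The let-7 family is known to hold back growth and developmental timing genes, and it is among the most abundant families in lung. Of 11 tested members of the list (let-7 and miR-98), 6 were higher and 3 lower past the threshold, beside 20.1% higher and 15.9% lower over all tested miRNAs. The median change was 0.25, against 0.04 over all tested miRNAs. The 6 higher were let-7a, 7b, 7c, 7d, 7e and 7i, all 5p arms, and the 3 lower were let-7a-1-3p, let-7i-3p and miR-98-5p. The 5p arm of let-7f was at -0.09 (limma adjusted p = 0.366). With slide as a block 0 of the 11 passed and the median was 0.04. The median turned to -0.06 under quantile normalization and to -0.39 in the series table.

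For let-7e-5p the log2 levels were 9.71, 9.66 and 9.64 in control males and 10.31, 10.42 and 10.33 in 1500 ppm males. Male 13 was at 10.21, males 11 and 12 at 9.57 and 9.76, and the control females on slide 2 at 10.26, 10.14 and 10.25. The 1500 ppm males were thus well above the control males and a little above every other rat on slide 2. The difference was 0.68 ± 0.11 (SE, limma adjusted p = 0.000491), and the block left 0.13 ± 0.13.

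let-7b-5p and both arms of let-7i were called as well. let-7b-5p was at 12.31, 12.22 and 12.31 in control males, at 12.94, 13.07 and 12.95 in 1500 ppm males and at 12.82 in male 13, and differed by 0.71 ± 0.12 (SE, limma adjusted p = 0.000491). let-7i-5p differed by 0.49 ± 0.09 and let-7i-3p, from the other arm of its hairpin, by -0.59 ± 0.10 (SE). Under the block these 3 differences were 0.11, 0.08 and -0.06. The other called arms were let-7a-5p (0.25), let-7c-5p (0.45), let-7d-5p (0.43), let-7a-1-3p (-0.47) and miR-98-5p (-0.56), and miR-98-5p turned to 0.03 under the block. let-7i-5p was lower, at -0.22, in the series table, and let-7i-3p was at 0.03 with the normexp correction.

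miR-210-3p was also called in males. It was higher by 0.84 ± 0.11 (SE, limma adjusted p = 9.93e-05), with the 3 exposed males at 6.79 to 7.00 and the 3 control males at 5.86 to 6.16. Male 13 on slide 2 was at 6.54, between these groups and below each 1500 ppm male, and the other 5 males on slide 1 were at 5.96 to 6.17. The block left 0.40 ± 0.17 (SE, limma adjusted p = 1), which made it 1 of 4 miRNAs with an unadjusted p below 0.05 in that fit. It stayed positive in all scalings run, from 0.14 in the series table to 1.02 with the percentile over all probes. In females it was 6.40 to 6.63 in control and 6.57 to 6.84 at 1500 ppm, a difference of 0.17 (limma adjusted p = 0.552).

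miR-183-5p had the largest positive difference in males. It belongs to a cluster with miR-96 and miR-182 that is known from sensory organs and epithelia. Its log2 level was 4.60, 4.57 and 4.64 in control males, 5.47, 5.87 and 5.66 in 1500 ppm males and 5.56 in male 13. Control females on slide 2 were at 5.71, 5.83 and 5.50, within the range of the exposed males. The difference was 1.06 ± 0.18 (SE, limma adjusted p = 0.000491). The block left 0.12 ± 0.21. The other 2 tested members of the cluster, miR-182 and miR-96-5p, had differences of 0.12 and 0.17 and did not pass.

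The remaining 4 of the 8 higher miRNAs named in males were miR-672-5p (0.73 ± 0.11), miR-342-3p (0.66 ± 0.12), miR-429 (0.36 ± 0.07) and let-7i-5p above. miR-429 belongs to the miR-200 family, which represses the ZEB factors and so keeps epithelial character. Its differences were 0.14 with slide as a block and -0.33 in the series table, where miR-342-3p was at -0.05. For miR-672-5p the exposed males were at 6.49, 6.60 and 6.83, male 13 at 6.39 and the control males at 5.82 to 6.00, and the block left 0.34 ± 0.17.

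**Figure D3:**
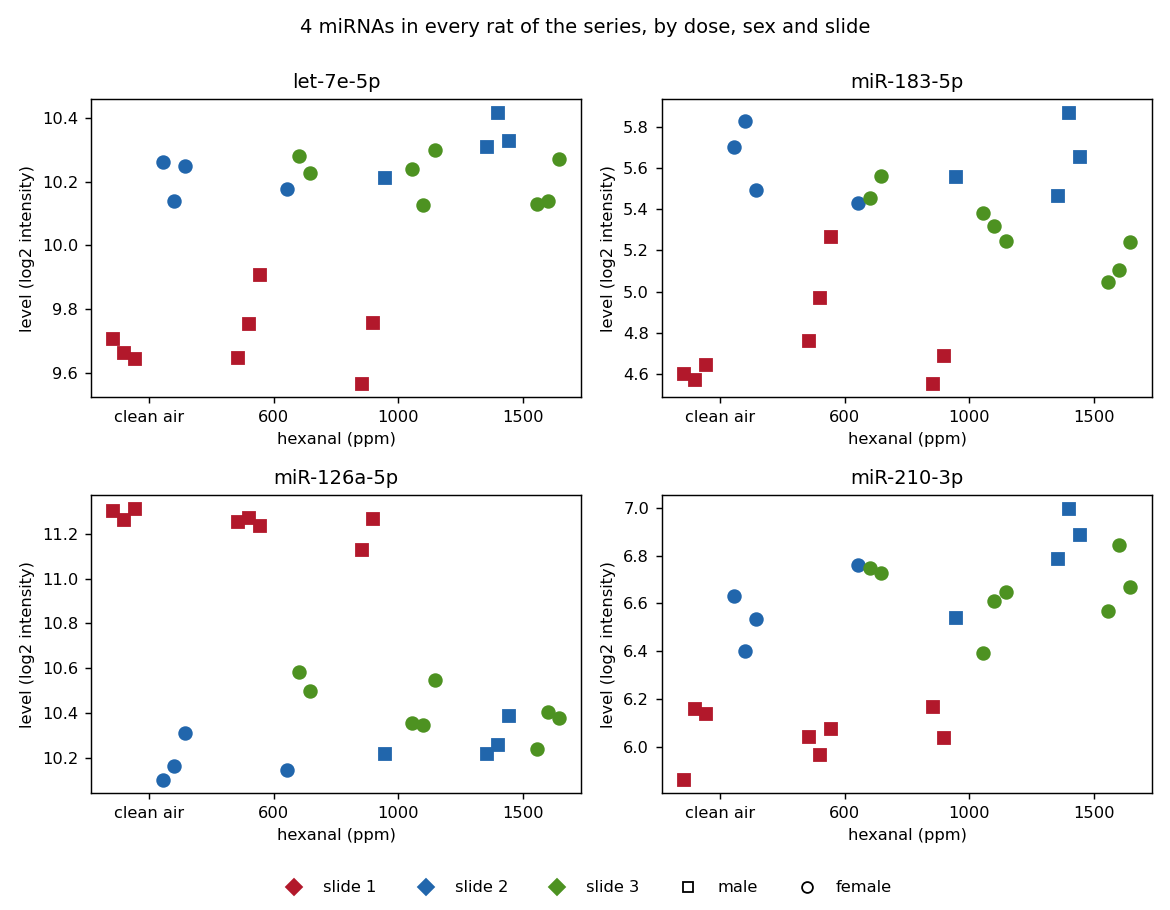
Log2 intensity of let-7e-5p, miR-183-5p, miR-126a-5p and miR-210-3p in all 24 rats by dose, with colour for the slide, squares for males and circles for females. In the first 3 panels the slide 2 male at 1000 ppm (10.21, 5.56 and 10.21) lies near the 1500 ppm males and the slide 2 control females, and in the panel of miR-210-3p it lies at 6.54, below the 1500 ppm males at 6.79 to 7.00.

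Among the lower miRNAs in males was miR-126a-5p. miR-126 is made in endothelial cells from an intron of Egfl7 and is needed for vessel integrity. The 5p arm was at 11.30, 11.26 and 11.31 in control males and at 10.22, 10.26 and 10.38 in 1500 ppm males. Males at other doses were at 11.13 to 11.27 on slide 1, and male 13 was at 10.21. The control females on slide 2 were at 10.10, 10.16 and 10.31, as low as the exposed males. The difference was -1.01 ± 0.18 (SE, limma adjusted p = 0.000491), and the block left -0.03 ± 0.13.

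The 3p arm of the same hairpin was not called. miR-126a-3p was at 13.66, 13.76 and 13.68 in control males and 13.77, 13.66 and 13.68 in 1500 ppm males, a difference of 0.01 (limma adjusted p = 0.948). Of the 4 tested endothelial miRNAs, the other 2, miR-221-3p and miR-222-3p, were lower by 0.37 and 0.29 in males past the threshold. In this bulk tissue, fewer cells of a type, less RNA per cell and a difference between slides cannot be told apart. The median of the list under the block was -0.01 in males.

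Tested arms could be paired through their RefSeq entries for 47 hairpins. Of these, 21 had differences of the same sign for both arms in males, called or not. In 10 of the 47 both arms passed in males. In 3 of the 10 the arms had the same direction and in 7 the opposite direction. let-7a, let-7i, miR-22, miR-29a, miR-24, miR-10a and miR-191a were the 7. Some hairpins with both arms tested, such as miR-126a and miR-30b, were not paired in this way and are not counted. For miR-30b the 3p arm was higher (0.35, limma adjusted p = 0.00567) and the 5p arm lower (-0.31, limma adjusted p = 0.0331). With slide as a block these 2 arms were at 0.02 and 0.12. miR-29a-5p was lower by 0.79 ± 0.14 (SE, limma adjusted p = 0.000491) and miR-29a-3p, a known repressor of collagen genes, was higher by 0.27 (limma adjusted p = 0.0109). Under quantile normalization miR-29a-3p was at -0.05, and with the block miR-29a-5p was at -0.03.

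Of the other lower miRNAs named in males, miR-201-5p was at 4.61, 4.42 and 4.76 in control males and was not above background on any array at 1500 ppm, where its measured mean was 3.58. It was called as lower, but its exposed values were at or near the floor. The difference has no measured size, and its p rests on these values. Male 13 was at the floor of 3.50, as was male 16. On slide 1 itself, the 600 ppm males were at 4.46, 4.26 and 3.87 and the 1000 ppm males at 3.96 and 3.89. The order of these males and the control males was not tested, nor counted over the other miRNAs.

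miR-201-5p was above background in every male on slide 1, which sufficed for the filter on dim probes. In male 13 it was not, so no blocked value is given for it. Of its neighbours on chromosome X, miR-547-3p was at -0.27 with the block. For miR-3585-5p male 13 was at the floor of 3.50, so no blocked value is given for that miRNA either. The window of 100000 bases, chosen after the values were seen, held 4 tested miRNAs with a RefSeq entry. Of these, 3 were lower in males past the threshold, beside 15.9% lower over all tested miRNAs. The other, miR-547-5p, was not called (0.05). miR-3585-5p was at 4.60, 4.58 and 4.76 in control males, 3.79, 3.65 and 3.91 in exposed males and 3.50 in male 13. The normexp correction gave 0.07 for it. On slide 1 it was at 4.44, 4.56 and 4.00 in 600 ppm males and at 4.07 and 3.92 in 1000 ppm males. miR-547-3p was at 4.30, 4.36 and 4.52 in control males and at 4.23, 4.44 and 3.96 in 600 ppm males of slide 1, which overlapped. In those 1000 ppm males it was at 3.98 and 3.87. How many of all tested miRNAs had such an order on slide 1 was not counted.

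miR-3068-3p, miR-352 and miR-191a-5p completed the named miRNAs. miR-3068-3p was at 6.29, 6.17 and 6.16 in control males, 5.21, 5.22 and 5.16 in exposed males and 5.15 in male 13. miR-352 was at 7.72, 7.67 and 7.71, at 6.71, 6.67 and 6.73, and at 6.65 in the same order. In both, male 13 was at or below the 1500 ppm males, and the blocked differences were -0.04 and 0.02. miR-191a-5p was lower by 0.75 ± 0.13 (SE), with -0.06 under the block and 0.02 with the normexp correction.

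For 10 of the 102 calls male 13 lay on the side of the control males. They were miR-181a-1-3p, miR-185-5p, miR-20a-5p, miR-23b-3p, miR-26b-3p, miR-30a-3p, miR-30a-5p, miR-30c-1-3p, miR-499-5p and miR-551b-3p, chosen after their values were seen. miR-30c-1-3p was at 3.60 on average in control males, 3.60 in male 13 and 3.94 in exposed males, with a blocked difference of 0.30. None of the 10 had an unadjusted p below 0.05 with the block.

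The other lists were read by their counts in males, beside 20.1% higher and 15.9% lower over all tested miRNAs. In the epithelial miR-200 family 2 of 6 were higher and 0 lower, with miR-429 highest and miR-200a-3p lowest (0.01). In the miR-181 list 3 of 5 were higher, led by miR-181b-5p (0.62), with miR-181d-5p lowest (0.04). In the miR-378 list both tested members were higher, miR-378a-5p by 0.72 and miR-378b by 0.27, but with slide as a block these were -0.12 and 0.05. In miR-23/27/24, 3 of 7 were higher and 1 lower. The highest value, 0.40 for miR-23a-5p, did not pass, the highest that passed was miR-27a-3p (0.33), and the lowest was miR-24-2-5p (-0.51). Under the block miR-200a-3p was at 0.07, miR-181b-5p at 0.09 and miR-181d-5p at -0.09. In that fit miR-23a-5p was at -0.02, miR-27a-3p at 0.08 and miR-24-2-5p at 0.07.

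In miR-17-92 and its paralogs, a cluster known to promote cell growth, 3 of 14 were higher and 1 lower, from miR-92a-3p (0.56) to miR-17-1-3p (-0.36). In miR-30, 4 of 11 were higher and 2 lower, from miR-30b-3p (0.35) to miR-30e-3p (-0.43). Of the miR-26 and miR-101 list, 4 of 6 were lower, the lowest miR-101a-5p (-0.53), and the highest, miR-26a-5p (0.15), did not pass. Of the smooth muscle and fibroblast miRNAs 1 of 7 was higher, miR-214-3p (0.65), and 2 lower, with miR-145-5p lowest (-0.54). Under the block miR-92a-3p was at -0.002, miR-17-1-3p at -0.17, miR-30b-3p at 0.02 and miR-30e-3p at -6.26e-05. In that fit miR-101a-5p was at 0.14, miR-26a-5p at 0.03, miR-214-3p at -0.07 and miR-145-5p at 0.05.

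The ciliated cell list, which took in all of miR-34 and miR-449, had 1 of 8 higher, miR-34a-5p (0.57), and 0 lower, with miR-34b-3p lowest (-0.36). miR-34a is not one of the ciliated cell markers named above. Of the 5 tested miRNAs of those markers 0 passed in males, with a median change of -0.03. The erythroid list had 1 of 3 lower, miR-144-3p (-1.20 ± 0.27, SE, limma adjusted p = 0.00177), with miR-144-5p highest (0.05). The leukocyte list had 1 of 5 lower, miR-142-5p (-0.49), with miR-223-3p highest (0.24). In miR-29, 1 of 5 was higher and 1 lower. Of miR-99, miR-100 and miR-125, 1 of 9 was higher (miR-99b-5p, 0.51), with miR-125b-5p among the lowest (-0.18). In the miR-500 family 1 of 6 was higher (miR-532-5p, 0.27), with miR-362-5p lowest (-0.11). In the Dlk1-Dio3 list 1 of 8 was lower (miR-770-3p, -0.43), and neither the lowest, miR-494-3p (-0.52), nor the highest, miR-487b-3p (0.31), passed. Of the called miRNAs named here, the block left 0.34 for miR-34a-5p, -0.42 for miR-144-3p and -0.25 for miR-142-5p. It left 0.16 for miR-99b-5p, -0.05 for miR-532-5p and -0.17 for miR-770-3p.

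None of the 5 injury and NF-kB miRNAs and none of the 6 of miR-15/16 passed. The latter ran from miR-322-3p (-0.18) to miR-15b-5p (0.23). Of the injury list, miR-21-5p was at 0.25 (limma adjusted p = 0.0504), miR-146a-5p, a feedback inhibitor of NF-kB signalling, at 0.11 and miR-212-3p lowest at -0.18. In the 6 settings other than the series table that rescaled or recombined the signal, main setting included, the sign of a list's median in males held for 7 lists (endothelial, erythroid, hypoxia, miR-200, miR-181, miR-378, and miR-26 with miR-101) and not for the other 14. With slide as a block, the median of the miR-378 list turned from 0.49 to -0.03, and the endothelial and miR-26 with miR-101 medians were -0.01 and -0.02. The series table gave 20 of the 21 lists a median below 0.

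**Figure D4:**
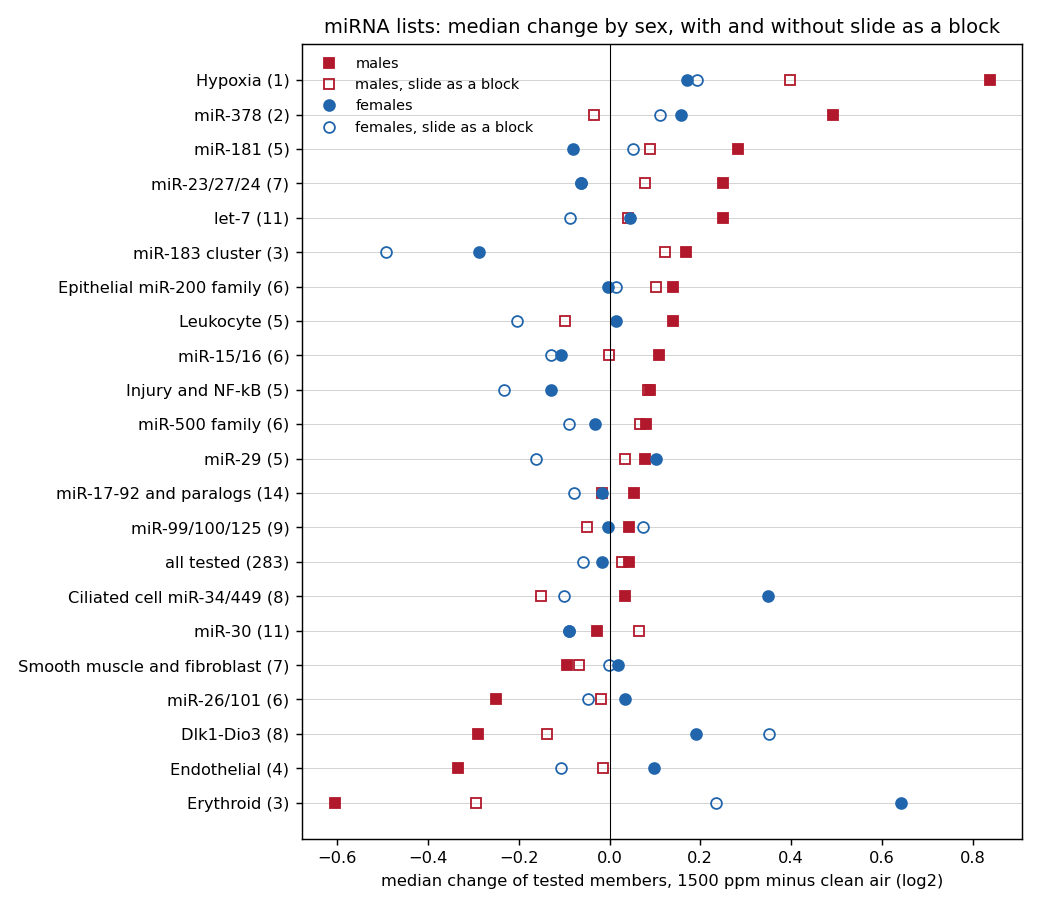
Median change of the tested members of each miRNA list, 1500 ppm minus clean air on the log2 scale, with red squares for males, blue circles for females and open symbols for the fit with slide as a block; the number of tested members stands in brackets. In males the endothelial list moves from -0.33 to -0.01 and the let-7 list from 0.25 to 0.04 with the block, against 0.04 and 0.03 over all 283 miRNAs.

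Females gave no call after adjustment (0 of 283, 0%, limma adjusted p of at least 0.155). There were 39 with an unadjusted p below 0.05 (13.8%), 14 higher and 25 lower. The control females lay on slide 2 and the exposed females on slide 3. Fitting the slide as a block, which rests on female 26 to link these slides within females, gave 0 calls, with 25 at an unadjusted p below 0.05. Over the 39 miRNAs, female 26 on slide 2 lay on the side of the exposed females for 8, and the 600 ppm females on slide 3 for 26 and 20. The 1000 ppm females, all on slide 3, did so for 25 to 28.

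miR-211-3p had the smallest p in females. It was at 5.51, 6.06 and 5.67 in control females, 5.12, 4.90 and 4.63 in exposed females and 5.76 in female 26. The 2 females at 600 ppm on slide 3 were at 5.02 and 4.72, among the exposed females. The difference was -0.87 ± 0.21 (SE, limma adjusted p = 0.155). The block left 0.03 ± 0.27. The other lower miRNAs with small p were miR-3593-3p (-0.41), miR-30d-3p (-0.29) and miR-130b-3p (-0.30), of which miR-30d-3p had a blocked difference of -0.41 ± 0.16 (SE, limma adjusted p = 0.505).

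The 4 higher miRNAs named in females did not pass the adjusted threshold. miR-451-5p and miR-144-3p are made together in red blood cell precursors, and miR-136-5p and miR-434-3p come from the Dlk1-Dio3 cluster. miR-451-5p was at 9.89, 10.23 and 10.09 in control females and at 11.05, 10.27 and 10.82 in exposed females, a difference of 0.64 ± 0.24 (SE, limma adjusted p = 0.285), and miR-144-3p had 0.67 ± 0.27. The summed level of the red blood cell markers ran from 1099 to 3173 in control and from 1069 to 2440 at 1500 ppm (3 of 4 members tested). miR-136-5p was at 3.86, 3.66 and 3.77 in control females and at 4.48, 5.49 and 4.87 in exposed females, and had a difference of 1.18 ± 0.43 (SE, limma adjusted p = 0.285). miR-434-3p was above background in none of the control females and 1 of 3 exposed females. Its mean was 3.55 in control and 4.31 in exposed females (limma adjusted p = 0.306). With most of these arrays not above background, the difference has no measured size. The other members of these lists did not all have positive differences in females. The Dlk1-Dio3 list did not hold miR-136-5p. Of the 8 tested members of that list 4 were positive and 4 negative, with miR-134-5p at -0.58 (limma adjusted p = 0.306) and miR-370-3p at -0.30. In the erythroid list miR-144-5p was at -0.04.

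Striated muscle miRNAs varied between single rats. miR-1-3p, the main miRNA of skeletal and heart muscle, was at 7.45, 8.23 and 3.50 in females 36, 37 and 38, where 3.50 is the floor, and at 4.30, 3.52 and 3.50 in control females. In males it was at 6.21, 4.46 and 5.62 in control and at 3.52, 5.34 and 3.50 at 1500 ppm. The difference was 2.62 in females (limma adjusted p = 0.337) and -1.31 in males (limma adjusted p = 0.43). miR-133b-3p, which differs from miR-133a-3p at 1 base, was at 9.64 in female 37 and 6.97 in female 38, and the same 2 rats, females 36 and 37, were high. The summed level of the list was 289 to 509 in control and 258 to 1273 at 1500 ppm, with 5 of 14 members tested. Its part in the differences of other miRNAs in females, miR-136-5p and miR-434-3p among them, was not tested.

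The last comparison asked whether the difference between exposed and control rats was itself different in males and females. Of 283 miRNAs, 100 passed the threshold (35.3%, limma with Benjamini-Hochberg adjustment), 60 with the more positive difference in males and 40 with the more negative. Of these, 85 had also passed in males, which is 83.3% of the male calls and 85% of the calls of this comparison, and both use the same 6 males. The block left 0 calls, with 9 at an unadjusted p below 0.05. Under the other scalings the split of 60 and 40 was 107 and 18 with the percentile over all probes, 100 and 32 with the brightest probe, 22 and 45 with the total gene signal and 2 and 150 in the series table.

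miR-183-5p had the smallest p. It was higher in exposed males by 1.06, while in females it was at 5.05, 5.10 and 5.24 at 1500 ppm and at 5.50 to 5.83 in control, a difference of -0.55 that did not pass within females (limma adjusted p = 0.285). The response of males minus that of females was 1.61 ± 0.26 (SE, limma adjusted p = 0.00209), of which 0.75 ± 0.30 was left by the block. Next among the positive ones were miR-672-5p (0.83), miR-429 (0.47), miR-342-3p (0.85) and miR-324-5p (0.60).

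The named negative ones were miR-10b-5p (-1.31), miR-352 (-1.23), miR-144-3p (-1.87), miR-191a-5p (-0.90) and miR-201-5p. miR-201-5p was above background in the control males but in no female of either group and no exposed male, so that its difference between the sexes has no measured size. miR-144-3p was at -1.20 in exposed males and at 0.67 in exposed females, where it did not pass. miR-10b-5p was at 6.03, 5.88 and 5.96 in control males, 5.04, 5.21 and 4.96 in exposed males and 5.16 in male 13, with a blocked value of -0.02 for the difference between the sexes. In these 4 cells of sex and dose, the control males were the only rats on slide 1.

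**Figure D5:**
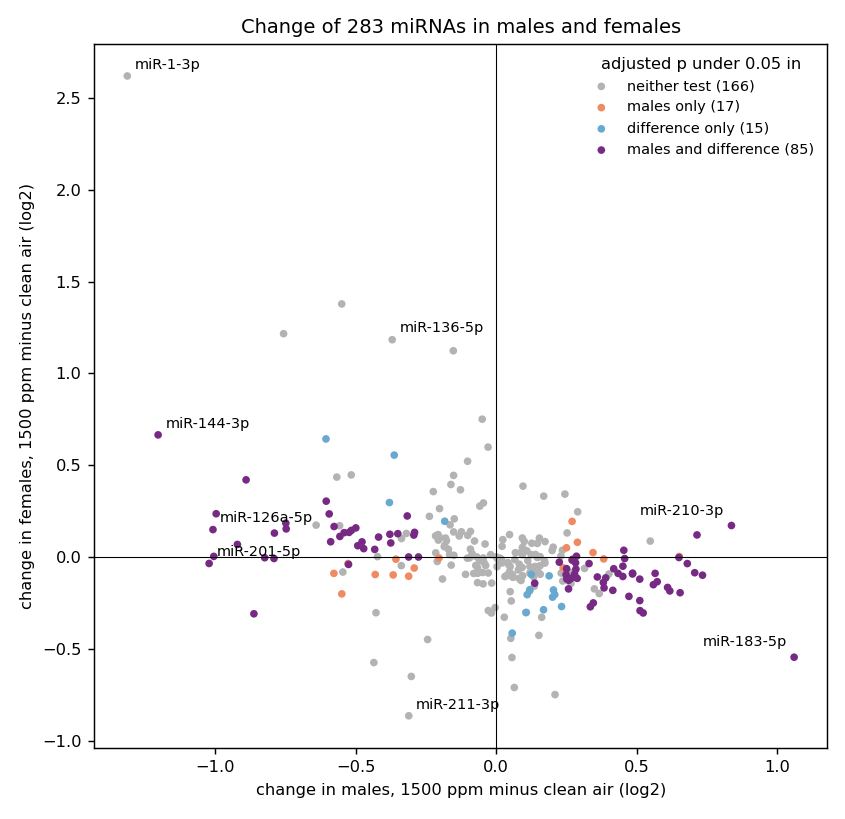
Change of each of the 283 tested miRNAs in males and in females, 1500 ppm minus clean air on the log2 scale, with colour for whether the adjusted p was under 0.05 in males, in the difference between the sexes, in both or in neither. Of the 102 miRNAs called in males, 23 had the same sign in females and 79 the opposite sign, and 0 miRNAs passed in females.

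Base composition was set against the changes as a description. Across the 249 miRNAs with a RefSeq sequence, Spearman's rho between the GC content of the mature sequence and the change was 0.14 in males, -0.20 in females and 0.06 for both sexes together. With slide as a block it was 0.07, 0.22 and -0.18, so that the sign turned in females and over both sexes. All miRNAs share the same arrays and are not replicates.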

How the data were processed

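Total RNA (100 ng) of each lung was labelled with Cy3 and hybridised to a single-colour Agilent rat miRNA array. The authors deposited 1 scanner file per array (Agilent Feature Extraction 11.5.1.1), whose processed intensity is corrected for background and not normalised between arrays, and a series table of unscaled total gene signal intensities in which 58.7% of values were set to 1. Other processing of these arrays was not given in the sources used here.

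Outlier-flagged spots were left out. To scale an array, its intensities were brought to a common 75th percentile of 865, taken over the 394 probes that rose above background throughout. Values under 11.3 were set to that floor (8.59% of kept spots), and log2 values of the deposited intensity were averaged over spots and probes. Probes needed a majority of spots over background on 6 or more of the 24 arrays, which left 283 of 719 miRNAs. The number of arrays limits the precision, and the floor makes differences of dim miRNAs smaller. No 2 arrays of a group were duplicates (largest r of log2 levels between rats of 1 sex and group 0.997).

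All 24 arrays were fitted in limma 3.58.1 (R 4.3.3), with 4 group means for both sexes (20 residual degrees of freedom) and 8 means of group and sex otherwise (16), two-sided, with Benjamini-Hochberg adjustment at 0.05. The labels name single rats, so p-values rest on the spread between rats, which without the block also holds differences between slides. The 1000 ppm males and the 600 ppm females were each spread over different slides. The means of the 4 groups pooled both sexes and different slides. Whole-array values were compared by exact permutation. The script was tested on simulated data. Slide was read from the file headers and fitted as a fixed or random block, over both sexes without a term for sex. Alternatives changed scaling, filter, floor, probe summary, background correction, samples, eBayes options, sex as a covariate, the methods' t-test and single rats. The methods' t-test is the unpaired test of a paper on DNA methylation in the lung of hexanal-exposed Fischer-344 rats. Its 1.5-fold minimum was used there for mRNA, and that paper describes no miRNA arrays.

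Named miRNAs were the 5 higher and 5 lower with the smallest p (both sexes, unadjusted p under 0.05), 8 and 8 in males and 5 and 5 for the sex difference (past the threshold), 4 and 4 in females (unadjusted), and the highest and lowest of each list. Members, lists (21 families or cell types and 10 tissue marker lists) and this rule were chosen with earlier results of these data known.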

Additional observations from a re-analysis of the deposited data

Results flagged for a closer look

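In 4 cases a single rat stood apart from the other 5 of its group, by a gap to the nearest rat that exceeded Dixon's critical value as a share of the group's range. This was seen in 4 of 66 groups examined, where chance gives about 3.3. Control male 2 was at 5.29 on the log2 scale for miR-136-5p, with the other control rats at 3.69 ± 0.13 (SD, gap share 0.801), and at 4.21 for miR-434-3p, with the others at 3.53 ± 0.04 (0.882). Both miRNAs lie in the Dlk1-Dio3 cluster. In the 1500 ppm group, male 18 stood apart for miR-201-5p (3.73 against 3.51 ± 0.02, 0.847), where no array was above background, and male 17 for miR-3593-3p (6.01 against 5.83 ± 0.04, 0.63).

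The difference between exposed and control rats differed between males and females for 100 miRNAs by limma's test of the difference itself. Its values on the log2 scale were 1.61 for miR-183-5p, 0.83 for miR-672-5p, 0.47 for miR-429, 0.85 for miR-342-3p and 0.60 for miR-324-5p, and -0.99 for miR-201-5p (no measured size, since of the 12 control and 1500 ppm rats it was above background in the control males alone), -1.31 for miR-10b-5p, -1.23 for miR-352, -1.87 for miR-144-3p and -0.90 for miR-191a-5p. The fit with slide as a block left 0 calls, and dose and slide cannot be told apart within a sex.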

How the results depend on the processing

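No paired analysis was possible because the 2 groups share no replicate number in the labels. Over both sexes, 0 miRNAs passed in every setting except the series table (1, lower) and the methods' t-test (2, lower, over 1.5-fold with p below 0.05 before adjustment). The 0 of the females became 4 with the percentile over all probes, 4 by that t-test and 1 without female 36. The 102 male calls became 197 in the series table, 7 with normexp, 0 with slide as a fixed block, 2 with slide as a random block and 27 by the t-test with its 1.5-fold minimum and no adjustment, while the t-test after Benjamini-Hochberg adjustment gave 102. The 100 calls of the difference between the sexes became 152, 0, 0 and 0 in the series table, with normexp and with the fixed and random block. Without each rat in turn the counts were 0 to 0 (both sexes), 91 to 106 (males), 0 to 1 (females) and 84 to 106 (difference).

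Of the values of named miRNAs, 20 reversed, 494 were the same, 74 weaker and 5 stronger across the settings that kept all rats, and the cause was not tested. In the series table, whose median change was -0.66 in males, the reversed ones were over both sexes miR-378b (-0.027) and miR-21-5p (-0.058), in males miR-429 (-0.33), miR-342-3p (-0.055) and let-7i-5p (-0.22), and in the difference miR-672-5p (-0.050), miR-429 (-0.40), miR-342-3p (-0.040) and miR-324-5p (-0.29). With normexp they were miR-3585-5p (0.066), miR-191a-5p (0.017) and let-7i-3p (0.030) in males and miR-201-5p (0.20) and miR-191a-5p (0.10) in the difference. With slide as a block they were miR-352 (0.021 in males and 0.079 in the difference) and miR-211-3p (0.028) in females. With slide and sex together, added after seeing the data, they were miR-211-3p (0.048), miR-134-5p (0.0087) and miR-139-3p (0.12) over both sexes. Within slide 2 alone, where 1500 ppm males face control females, there were 0 calls, with 66 at an unadjusted p below 0.05.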
